A study of Sus scrofa with 23 samples.

Results

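The step from egg to zygote was described here from a pair of libraries, the in vivo matured MII oocyte (IV-D OC) and the in vivo fertilized 1-cell embryo (IV-D 1C), among the 23 libraries of porcine oocytes, cloned embryos and fertilized embryos in the deposited FPKM table. IV-D OC held oocytes at the second meiotic metaphase taken from Duroc sows, 2 years old, in estrus. IV-D 1C held zygotes flushed from Duroc sows 12 h after artificial insemination with semen of a Duroc boar. Each library pooled about 10 oocytes or embryos stripped of the zona pellucida, males and females of a sow were pooled together, and no genetic modification was involved in either group. There was 1 library a side, so stage, sow and library cannot be told apart, no test between stages was possible, and every count below is a count of genes past a fold.

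A gene was compared when it reached 1 FPKM (fragments per kilobase of gene and per 1000000 mapped fragments) in at least 1 of the 2 libraries, which 6702 of the 8603 listed genes did. It was called gained or lost when log2(FPKM + 1) differed by more than 1. By this rule 920 genes were gained (13.7% of those compared) and 512 were lost (7.64%), while 5270 were neither. The deposited table is named as one of differential genes and holds only part of the annotated genes, so these shares may not be shares of the transcriptome.

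An MII oocyte is transcriptionally silent and lives on stored maternal mRNA, much of it with short poly(A) tails that are lengthened when translation is needed. Sperm entry triggers calcium release, destruction of cyclin B, exit from meiosis, formation of pronuclei and the first DNA replication, while major genome activation in the pig comes later, around the 4-cell stage. Because cDNA was primed from poly(A), a gene can gain or lose fragments here through the number of its molecules or through the length of their tails, and these cannot be told apart.

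The FPKM values resolved into whole fragments for 100% of genes. The libraries held 21337511 fragments (IV-D OC) and 16603983 fragments (IV-D 1C), and the in vivo 2-cell library (IV-D 2C) held 22991067. The oocyte list, of transcripts that define the female germ cell, was present in both libraries: all 15 of its listed genes reached 1 FPKM in each. Markers of other cells of the reproductive tract were mixed. Of 6 cumulus or granulosa markers 2 reached 1 FPKM, VCAN with 120 and 102 FPKM and GREM1 with 1.37 and 2.12 FPKM, in the order oocyte and 1-cell, and HAS2, NR5A2 and EREG held at most 8 fragments in either. Of 6 oviduct epithelium markers, 3 reached 1 FPKM in both libraries: EPCAM was gained (5.76 to 15.7 FPKM), CDH1 stood at 15.2 and 12.2 FPKM and MSX1 at 1.11 and 2.33 FPKM. KRT18 was at 0 in both, KRT8 at 0.27 and 0 FPKM and CLDN4 at 0.24 and 0.07 FPKM. The leukocyte markers LCP1 and S100A12 summed to 0.27 FPKM in the oocyte and 0.10 FPKM in the 1-cell library. They were the only 2 of 16 chosen leukocyte markers with values. Of the chosen cumulus or granulosa markers 6 of 19 had values, and of the oviduct markers 6 of 17. The other markers of these cell types could not be checked.

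Most of the change was modest. The median difference over all compared genes was 0.13 on the log2 scale, 47.7% of genes differed by at most 0.5, and only 82 genes were gained and 33 lost by more than 2. Among the gained genes, 80.8% already stood at 1 FPKM or more in the oocyte library. This is a lower share than over all compared genes, where 6163 of 6702 did. After each library was centred by the median ratio of its genes, the count was 641 gained and 723 lost in place of 920 and 512, and the share of gained among all calls went from 64.2% to 47.0%. With every library rescaled to one sum, 910 were gained and 775 lost, a gained share of 54.0%. The median shift behind this was 0.17 on the log2 scale (0.13 as deposited against -0.04 after centring), and of the 106 named genes past the fold 99 stayed past it under both scalings. The exceptions, PADI6, PLK1, CNOT11, NFYA, NDUFA6, SRSF11 and ACTB, all lay within 0.2 of the threshold. At that threshold NADK2 was the gene just inside the gained set (1.24 to 3.48 FPKM) and TOB1 just outside it (15.2 to 31.3 FPKM). CHN2 was just inside the lost set (31.7 to 15.3 FPKM) and IMPACT just outside (3.78 to 1.39 FPKM).

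**Figure D1:**
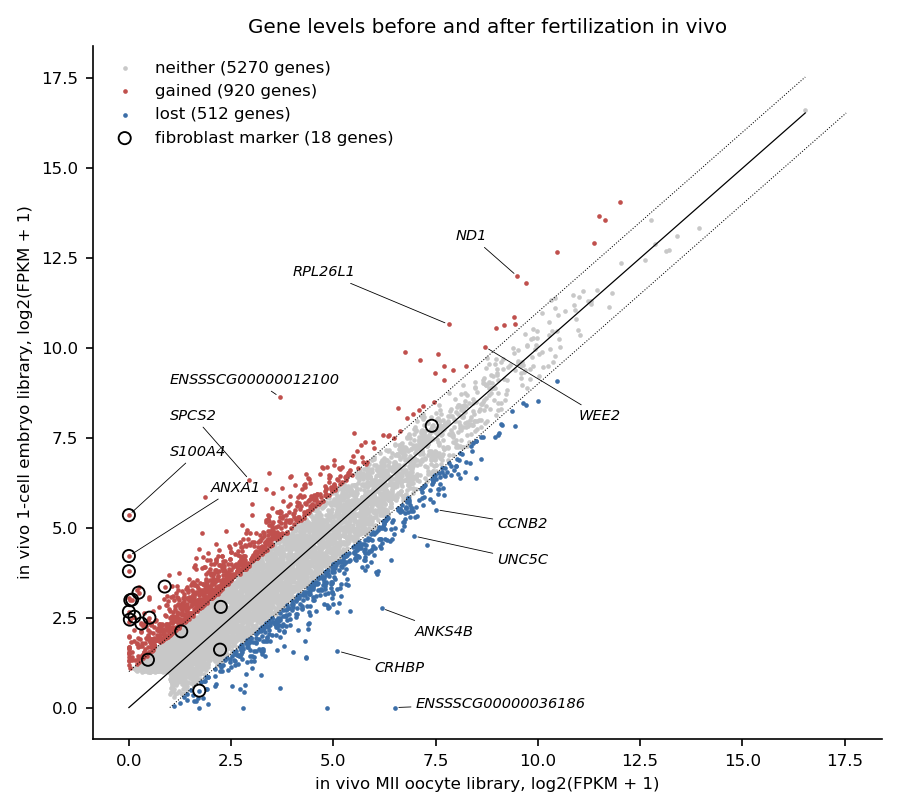
Levels of the 6702 compared genes as log2(FPKM + 1), in vivo oocyte library on the x axis and in vivo 1-cell library on the y axis, 1 point a gene, with dotted lines at a difference of 1. Of the 18 circled fibroblast markers, 4 had 0 oocyte fragments and most others lie near the left edge, apart from the broad band of gained and lost genes on either side of the diagonal.

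Among genes with a symbol and at least 10 FPKM, S100A4, ANXA1 and S100A6 had the largest rises. S100A4, a calcium-binding protein abundant in fibroblasts, had 0 fragments in the oocyte and 478 in the 1-cell library (0 and 39.9 FPKM), which is at least 205-fold higher against a floor of 3 fragments. ANXA1, a phospholipid-binding annexin, went from 0 to 789 fragments (17.6 FPKM), at least 338-fold higher, and S100A6 from 0 to 163 fragments (12.9 FPKM), at least 69.8-fold higher. All 3 were also at 0 in the in vitro matured oocyte library. S100A4 and S100A6 lie close together on chromosome 4 (96088102 to 96091160 and 96098264 to 96099686, Sscrofa11.1, RefSeq gene bounds).

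The other 9 of the 12 largest rises among genes with a symbol and at least 10 FPKM had fragments in both oocyte libraries. Genes that peaked under 10 FPKM, such as FOS, SPARC, CAV1 and VIM, rose more than most of these 9 and are described further on. SPCS2, a signal peptidase subunit of the secretory pathway, stood at 6.71 FPKM in the oocyte, 79.7 in the 1-cell and 74.3 in the 2-cell library, 11.9-fold higher (95% interval 10.7 to 13.2). RPL26L1, a ribosomal protein copy, went from 225 to 1615 FPKM, 7.16-fold higher (6.91 to 7.43), though its near-identical relative RPL26 makes its assignment uncertain. RAB6A, a Golgi trafficking GTPase, went from 2.26 to 20.5 FPKM, 9.05-fold (7.72 to 10.7). RSPH3, a radial spoke protein, went from 2.47 to 27.8 FPKM and back to 0.93 in the 2-cell library. MED20, a Mediator subunit, followed the same course with 0.98, 11.9 and 0.89 FPKM, as did the glutamine transporter SLC1A5 with 7.09, 49.9 and 8.19 FPKM and the lysosomal thioesterase PPT2 with 2.13, 17.0 and 2.03 FPKM. The last 2 of the 12, ND3 and ND1, are mitochondrially encoded. In the in vitro matured oocyte library every one of these 9 stood above its in vivo oocyte level, for example SPCS2 at 60.7 and RAB6A at 15.9 FPKM. The 9 were chosen in part for a low in vivo oocyte level, so this order was favoured by the choice. All intervals given are exact binomial intervals for the fragments of these libraries and cover counting error only.

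Among genes with a symbol and at least 10 FPKM, the largest losses were shallower than the largest rises. CRHBP, a binding protein for corticotropin-releasing hormone, stood at 33.3 FPKM in the oocyte and 1.98 FPKM in the 1-cell library, 16.8-fold lower (95% interval 13.8 to 20.7), but at 54.5 FPKM in the 2-cell library. ANKS4B, an ankyrin repeat scaffold protein, went from 71.4 to 5.80 FPKM, 12.3-fold lower (10.7 to 14.2). NAPEPLD, which makes N-acylethanolamines, went from 19.0 to 1.65 FPKM, 11.5-fold lower (8.86 to 15.1). The netrin receptor UNC5C had 124, 26.3 and 108 FPKM in oocyte, 1-cell and 2-cell libraries, and C21orf91 had 41.3, 5.48 and 38.7 FPKM. The germ cell RNA-binding gene RBM44 (19.7, 3.51 and 2.43 FPKM) stayed low in the 2-cell library. The remaining 6 largest falls, QTRT2 and MTREX of RNA processing, WDR48 of deubiquitination, the spindle protein CKAP2L, UEVLD and DENND2C, were 5.10- to 8.03-fold lower. Of these 12 falls, 11 were lower in the 1-cell library than in both the oocyte and the 2-cell library, RBM44 being the exception. The 12 were chosen for a low 1-cell level beside the oocyte. The order against the oocyte was thus fixed by the choice, and a higher 2-cell level was favoured by it.

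Genes without a symbol in the annotation held the extremes, and 4 are given here, chosen after their values were seen. ENSSSCG00000036186 had 1002 fragments in the oocyte (89.4 FPKM) and 0 in both the 1-cell and 2-cell libraries, at least 260-fold lower. ENSSSCG00000014212 had 149 fragments in the oocyte, 0 in the 1-cell and 248 in the 2-cell library. ENSSSCG00000012100 went from 11.9 to 399 FPKM and was at 5.61 FPKM in the 2-cell library. ENSSSCG00000032395 went from 2.65 to 57.2 and then 2.19 FPKM.

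To set apart transcripts absent from the libraries on either side, genes that were gained while staying under 1 FPKM in both the oocyte and 2-cell libraries were taken as 1-cell-only. There were 118, or 1.76% of those compared, and most were faint: their median 1-cell level was 2.81 FPKM and 12 reached 5 FPKM. The name holds for these 3 libraries only, since 52 of the 118 reached 10 FPKM in an in vivo library of the 4-cell stage or later. Their levels in these 3 libraries are what chose them. In the in vitro matured oocyte library, which played no part in the choice, 79 of the 118 stood at 1 FPKM or more (median 2.39 FPKM for those), so these transcripts were present in another egg library. Over all 6702 compared genes the lower quartile in that library was 3.83 FPKM, so a larger share of them reached 1 FPKM there. The other 39 of the 118 were under 1 FPKM in the in vitro matured oocyte library as well. These 39 held the fibroblast-type transcripts.

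The fibroblast list held 44 genes of collagen matrix, contractile cytoskeleton and mesenchymal calcium-binding proteins, of which 23 were in the table and 18 could be compared. Of these 18, 12 were gained and 1 was lost, and the median difference of the list was 2.41 on the log2 scale. Over all compared genes 13.7% were gained, 7.64% were lost and the median was 0.13, but this is not a like background. Of the 23 markers 5 reached 1 FPKM in the oocyte library and 17 in the 1-cell library. Most of the 18 could thus be compared only through the 1-cell library, whereas 6163 of the 6702 compared genes reached 1 FPKM in the oocyte. The list was drawn up with earlier results of these data known, so its count is a description. In matrix genes, COL1A1, a chain of type I collagen, had 13, 499 and 13 fragments in oocyte, 1-cell and 2-cell libraries (0.10, 4.76 and 0.09 FPKM), 49.3-fold higher in the 1-cell than the oocyte library (95% interval 28.6 to 93.3). Its partner chain COL1A2 had 0.83, 9.31 and 1.40 FPKM, 11.2-fold (8.90 to 14.2). COL3A1, of type III collagen, had 0.23, 4.05 and 0.41 FPKM, 17.3-fold (11.4 to 27.4). SPARC, a collagen-binding matrix protein, had 7, 250 and 18 fragments, 45.9-fold (21.9 to 115).

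Membrane and cytoskeletal markers moved the same way. CAV1, the caveolar coat protein, had 1, 220 and 6 fragments in oocyte, 1-cell and 2-cell libraries, a ratio of 283 between 1-cell and oocyte whose counting interval ran from 50.2 to 11217. VIM, the mesenchymal intermediate filament, had 5, 484 and 94 fragments (0.06, 7.02 and 0.98 FPKM), 124-fold higher (52.9 to 385). TPM2, a tropomyosin, had 0, 183 and 9 fragments, at least 78.4-fold higher. LGALS1, galectin-1, had 1, 215 and 48 fragments, and ACTA2, smooth muscle actin, had 0.42, 4.66 and 0.31 FPKM, 11.2-fold (7.11 to 18.5). Other members differed from this. FBLN1, a basement membrane fibulin, was lost (2.30 to 0.39 FPKM), and the other 5 compared members, SERPINF1, FSTL1, CALD1, ANXA2 and FBN1, had differences between -0.62 and 0.86. PDGFRA, a surface marker of fibroblasts, was at 0.17 and 0.11 FPKM and FN1 at 0.19 and 0.56 FPKM.

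Of the 12 gained markers, 10 belonged to the 1-cell-only set, the exceptions being ANXA1 (11.2 FPKM in the 2-cell library) and COL1A2 (1.40 FPKM). The 10 together held 72 fragments in the in vivo oocyte, 2998 in the in vivo 1-cell, 265 in the in vivo 2-cell and 12 in the in vitro matured oocyte library. As a sum of FPKM this was 1.02, 98.1, 4.12 and 0.23, and at its peak it took 0.0181% of the 1-cell library. The in vivo oocyte, 1-cell and 2-cell values are what chose the 10. Later in vivo stages split the 10. In the trophectoderm library (IV-D TE) LGALS1 stood at 458 FPKM and S100A6 at 31.5 FPKM, while SPARC, CAV1, VIM, COL1A1, COL3A1 and ACTA2 were at 0.

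**Figure D2:**
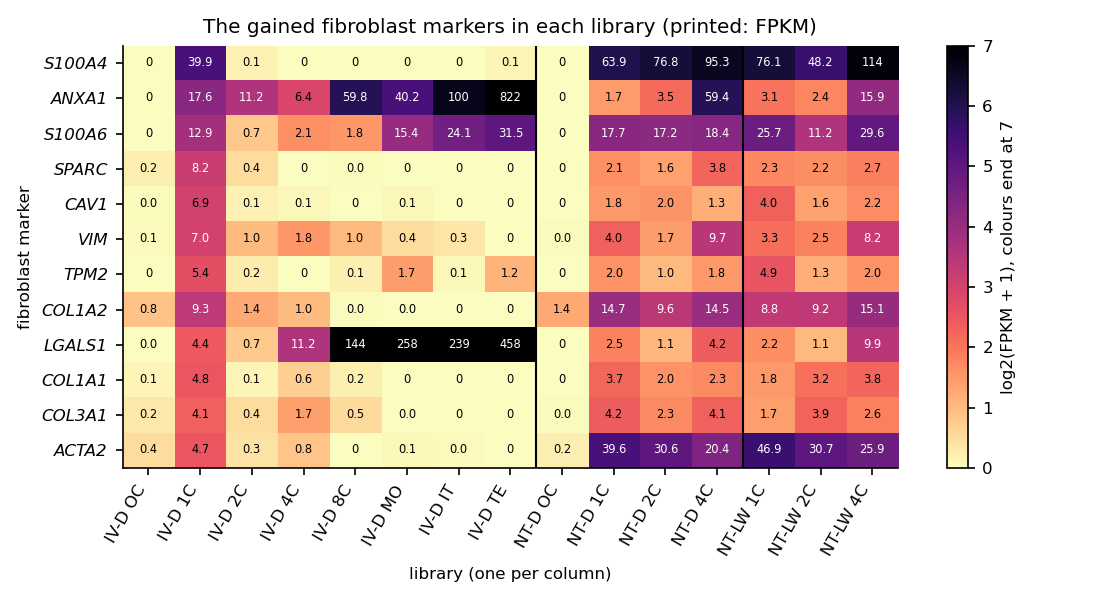
The 12 gained fibroblast markers (rows) in the in vivo libraries, the in vitro matured oocyte and the early clone libraries (columns, 1 library each), coloured by log2(FPKM + 1) with FPKM printed. OC is oocyte, MO morula, IT the blastocyst part with inner cell mass and trophectoderm, and TE trophectoderm alone. In the in vivo series the 1-cell column stands out between near-empty oocyte and 2-cell columns, apart from ANXA1 in the 2-cell, whereas in both clone series the markers persist through the 4-cell column. The 12 were chosen by their rise from the in vivo oocyte, and 10 of them are in the 1-cell-only set, chosen also by a low in vivo 2-cell level.

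Cloned embryos give a reference for these transcripts, since nuclear transfer puts a boar ear fibroblast into an enucleated egg, here one matured in vitro from a hybrid sow and cultured afterwards. All 10 markers were at or above 1 FPKM in the 1-cell, 2-cell and 4-cell libraries of both clone groups, the Duroc clones (NT-D) and the Laiwu clones (NT-LW). Their sum was 142 FPKM in NT-D 1C and 169 FPKM in NT-LW 1C, beside 98.1 FPKM in IV-D 1C. The proportions differed. ACTA2 stood at 4.66 FPKM in IV-D 1C against 39.6 and 46.9 FPKM in the clones, a ratio of 0.118 to the Duroc clones, whereas SPARC stood at 8.16 FPKM against 2.08 and 2.33, a ratio of 3.92, and CAV1 at 6.93 against 1.81 and 3.99. S100A4 was lower in vivo (39.9 FPKM) than in the clones (63.9 and 76.1), and 6 of the 10 markers were higher in IV-D 1C than in NT-D 1C. A high IV-D 1C level is part of what chose the 10, so these comparisons with the clones are not free of the choice. From 1-cell to 2-cell, the marker sum went from 98.1 to 4.12 FPKM in vivo, from 142 to 136 FPKM in the Duroc clones and from 169 to 106 FPKM in the Laiwu clones. The 10 were chosen in part for staying under 1 FPKM in IV-D 2C, so the in vivo fall was fixed by the choice. Over all 23 fibroblast markers in the table, which include these 10, the sum went from 367 to 170 FPKM in vivo. It was already 182 FPKM in the in vivo oocyte, and 1 marker held 228 of the 367 FPKM. This sum is thus neither free of the choice nor a measure of the 10. The sum over the 23 went from 396 to 355 FPKM in the Duroc clones and from 382 to 318 FPKM in the Laiwu clones. Where the fibroblast-type fragments of the in vivo 1-cell library came from was not tested. In pooled RNA, more cells of a type and more RNA per cell cannot be told apart.

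The other 29 genes of the 39 under 1 FPKM in both oocyte libraries and the 2-cell library were of mixed kinds. FOS, the immediate early transcription factor, had 0 fragments in the oocyte, 322 in the 1-cell and 2 in the 2-cell library (0, 7.20 and 0.03 FPKM), at least 138-fold higher. Unlike the markers above, it was near 0 in the cloned 1-cell libraries, with 0.21 FPKM in NT-D and 0.02 FPKM in NT-LW. PKM, pyruvate kinase of glycolysis, had 22, 312 and 42 fragments, 18.2-fold higher (11.8 to 29.5). TPM4, another tropomyosin, had 0.09, 3.46 and 0.51 FPKM. Of these 29 genes, 21 reached 10 FPKM in the in vivo trophectoderm library. Over all 6702 compared genes that library had a median of 6.58 FPKM and an upper quartile of 26.6 FPKM. An example is NUPR1, a stress-responsive chromatin protein, at 2.21 FPKM in the 1-cell embryo and 1042 in trophectoderm. In the immediate early and stress list, 7 of 15 listed genes could be compared. Of these 2 were gained and 0 lost, beside 13.7% and 7.64% over all compared genes. Only 3 of the 15 reached 1 FPKM in the oocyte library, against 7 in the 1-cell library. The gained ones were FOS and the MAP kinase phosphatase DUSP1, which had 0.91, 7.55 and 0.52 FPKM in oocyte, 1-cell and 2-cell libraries. JUN was at 2.30 and 4.62 FPKM, EGR1 at 0.21 and 1.34 FPKM, and IER3 at 104 and 55.4 FPKM, none of them past the fold.

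Mitochondrially encoded transcripts formed the most abundant gained group. All 13 protein genes of the mitochondrial genome were in the table, encoding core subunits of respiratory complexes and ATP synthase. Of the 13, 11 were gained and 0 lost, beside 13.7% and 7.64% over all compared genes, with a median difference of 1.91. The summed level of the 13 was 19159 FPKM in the oocyte, 71423 in the 1-cell and 85436 in the 2-cell library, or 1.87%, 6.93% and 8.24% of all fragments. COX3 went from 4104 to 16959 FPKM (4.13-fold, 4.10 to 4.17), COX1 from 3210 to 12108 FPKM (3.77-fold, 3.75 to 3.80), and ATP6 from 2899 to 13094 FPKM (4.52-fold, 4.47 to 4.56). ND1 went from 721 to 4095 FPKM and was at 2698 FPKM in the 2-cell library. ND4 (1.95-fold) and ND4L (0.753-fold) were the 2 not past the fold. ND4 overlaps ND4L, and ATP6 overlaps ATP8, so the assignment of fragments between them is uncertain.

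Of the nuclear genes of the same complexes few were called. Of 50 compared respiratory chain genes 1 was gained (NDUFA6, 37.8 to 84.5 FPKM) and 0 were lost, with a median of 0.21. Over all compared genes 13.7% were gained and 7.64% lost. NDUFA6 was not past the fold under either other scaling. Without the 13 mitochondrial genes the table summed to 459901 FPKM in the oocyte and 462561 in the 1-cell library, a ratio of 1.01. In the in vitro matured oocyte the 13 already summed to 49972 FPKM, with 46915 in NT-D 1C and 36507 in NT-LW 1C, and none of the 13 passed the fold in the Duroc clone step.

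**Figure D3:**
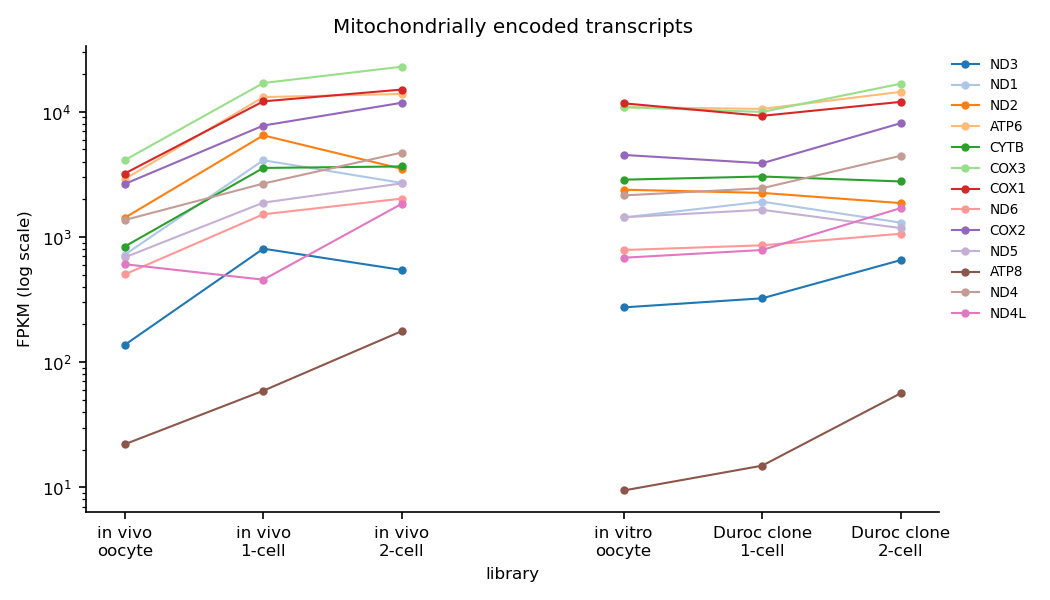
FPKM on a log axis of the 13 mitochondrial protein genes, 1 line a gene, in the in vivo oocyte, 1-cell and 2-cell libraries (left) and the in vitro matured oocyte and Duroc clone libraries (right). On the left 12 of 13 lines climb from oocyte to 1-cell, with ND4L the exception, while on the right the oocyte and 1-cell points lie nearly level.

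Genes of meiotic arrest and exit were called in both directions. MII arrest is held by cyclin B with CDK1, by the MOS kinase pathway and by EMI-type inhibitors of the anaphase-promoting complex (APC), and it ends when the APC, with the ubiquitin-conjugating enzyme UBE2C, destroys cyclin B. Of 31 listed genes 28 were compared, 7 were gained, 2 were lost and the median difference was 0.34, beside 13.7% gained and 7.64% lost over all compared genes. With GC bins centred 4 were gained and 3 lost. CCNB2, a B-type cyclin, had 181, 44.5 and 116 FPKM in oocyte, 1-cell and 2-cell libraries, 4.06-fold lower in the 1-cell (3.85 to 4.30). FBXO5, the APC inhibitor EMI1, had 60.8, 24.4 and 69.5 FPKM, 2.49-fold lower (2.39 to 2.61). The other cyclin, CCNB1, stood at 602 and 557 FPKM and did not pass the fold. The kinase partner CDK1 (12.3 and 7.71 FPKM), BUB1 (9.18 and 5.76 FPKM) and CCNB3 (15.7 and 7.47 FPKM) did not pass it either.

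On the gained side UBE2C went from 207 to 727 FPKM, 3.51-fold (3.38 to 3.65), and the oocyte-specific CDK1 inhibitor kinase WEE2 from 417 to 1046 FPKM, 2.51-fold (2.46 to 2.55). ESPL1, separase, which cleaves cohesin, went from 1.67 to 6.38 FPKM, and MAP2K1, in the MOS cascade, from 26.8 to 71.0 FPKM. PLK1 went from 7.88 to 19.0 FPKM, PPP2R1A, the PP2A scaffold, from 2.54 to 9.83 FPKM, and the APC subunit ANAPC4 from 1.59 to 4.93 FPKM. MOS itself stood at 142 and 173 FPKM and was at 34.5 FPKM in the 2-cell library. Levels of the APC subunits ANAPC1 (a log2 difference of 0.95), CDC27 (68.0 and 46.4 FPKM), CDC16 (15.1 and 9.41 FPKM) and ANAPC10 (14.8 and 20.5 FPKM) stayed within the fold, as did the checkpoint genes MAD2L1 (382 and 318 FPKM) and BUB1B (165 and 109 FPKM). Of the rest of the list AURKB (22.2 and 29.5 FPKM), UBE2S (90.1 and 128 FPKM), CKS2 (192 and 224 FPKM) and BTRC (3.80 and 3.98 FPKM) were also inside it. CDC25A (1.44 and 0.70 FPKM), CDC25B (0.66 and 1.56 FPKM) and ANAPC5 (0.81 and 1.64 FPKM) were faint, and WEE1, CDC23 and CDC26 were under 1 FPKM in both.

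Genes that store or destroy maternal mRNA gave 6 gained and 2 lost of 40 compared, with a median of 0.54. These shares lie near the 13.7% and 7.64% over all compared genes, so the members are given as values only. The translational regulator CPEB2 went from 1.95 to 8.35 FPKM, the deadenylase subunit PAN2 from 1.99 to 6.90 FPKM, and YTHDF2, a reader of methylated mRNA, from 6.18 to 17.5 FPKM. PARN, a poly(A)-specific ribonuclease, was lost (39.0 to 13.5 FPKM, 2.88-fold lower, 2.64 to 3.15). In the pronuclear chromatin list, 6 of 26 compared genes were gained and 1 lost, beside the same 13.7% and 7.64%, and 3 were gained with GC bins centred. UHRF1, which recruits maintenance methylation, went from 1.66 to 7.27 FPKM, the de novo methyltransferase DNMT3B from 3.17 to 11.2 FPKM, and H3-3A, coding for the replication-independent histone H3.3, from 206 to 551 FPKM. SETDB1, a histone H3 lysine methyltransferase, was lost (17.7 to 5.67 FPKM).

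For DNA replication licensing 6 of 34 compared genes were gained and 3 lost, and the median was -0.33, beside 13.7% gained and 7.64% lost over all compared genes. With GC bins centred 2 were gained, and MCM4 and MCM5 were not among them. The helicase subunit MCM2 went from 3.40 to 16.5 FPKM, MCM5 from 4.20 to 12.1 FPKM and MCM4 from 3.88 to 10.5 FPKM, while the polymerase subunit POLA1 went from 9.79 to 3.50 FPKM and the origin recognition subunit ORC3 from 87.4 to 36.4 FPKM. In the oocyte list 3 of 15 were gained, the zona protein ZP3 (15.5 to 41.6 FPKM), WEE2 and PADI6 (24.1 to 51.0 FPKM), and 0 were lost. This stands beside the same 13.7% and 7.64%. With GC bins centred 1 of the 15 was gained, and the list median went from 0.29 to -0.13. In the early genome activation list 2 of 11 were gained, the Hippo effector YAP1 (14.4 to 49.7 FPKM) and NFYA (1.35 to 3.72 FPKM), and 1 lost, OTX2 (107 to 41.9 FPKM), shares near the 13.7% and 7.64% of all compared genes. NFYA was not past the fold after median-ratio scaling or GC centring.

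The remaining lists are given beside the background of 13.7% gained and 7.64% lost. Ribosomal proteins had 9 gained and 1 lost of 43, proteasome genes 1 and 1 of 34, and spliceosome genes 6 and 4 of 31, with SF3B2 going from 2.74 to 16.1 FPKM. Cholesterol biosynthesis had 1 and 1 of 11, INSIG1 (1.99 to 9.96 FPKM) and ACAT2 (2.23 to 0.21 FPKM). Glycolysis had 3 gained of 10, PKM, ENO1 (0.97 to 5.73 FPKM) and GPI (1.45 to 6.52 FPKM), and cytoskeleton and adhesion 5 of 17, among them ITGB1 (1.11 to 7.57 FPKM) and TMSB10 (25.2 to 102 FPKM). Of 14 chosen sperm and spermatid markers only 2 were in the table, HSPA1L at 0 in both libraries and LDHC at 47.7 and 29.2 FPKM.

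**Figure D4:**
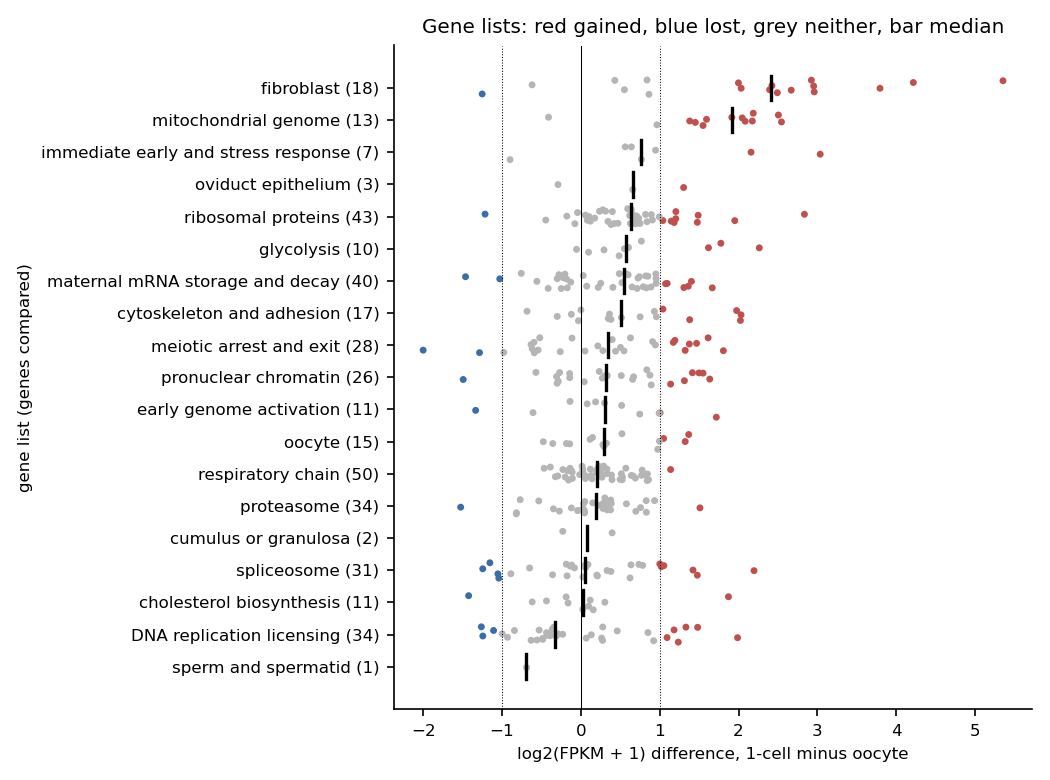
Differences in log2(FPKM + 1) between the in vivo 1-cell and oocyte libraries for the compared members of each gene list, 1 point a gene, with a bar at each list's median. The fibroblast and mitochondrial genome lists have medians of 2.41 and 1.91, while every other median lies between -0.69 and 0.77. Most of the fibroblast markers could be compared only through the 1-cell library.

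Calls varied with the G and C content of the genes. Coding stretches of 3 genes are shown to let such base composition be seen, each being the middle 90 bases of the longest coding exon, with G and C in capitals. SLC1A5 and RSPH3 had the highest coding GC among the 12 largest rises, leaving out mitochondrial genes. WDR48 was 1 of the 2 lowest among those of the 12 largest falls with a coding GC value. C21orf91, MTREX and DENND2C had no such value. The contrast between the 3 stretches was thus fixed by the choice. Other named genes go against it, the rises ANXA1 and RAB6A having coding GC of 43.0% and 43.7% and the falls CRHBP and UNC5C both 52.7%. SLC1A5 (chr6:52660482-52660571, minus strand) and RSPH3 (chr1:8244111-8244200, plus strand) were gained, and WDR48 (chr13:23760418-23760507, plus strand) was lost, all on Sscrofa11.1 with RefSeq exons.
SLC1A5: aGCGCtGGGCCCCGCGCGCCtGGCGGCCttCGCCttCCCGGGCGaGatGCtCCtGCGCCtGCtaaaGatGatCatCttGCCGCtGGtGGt
RSPH3: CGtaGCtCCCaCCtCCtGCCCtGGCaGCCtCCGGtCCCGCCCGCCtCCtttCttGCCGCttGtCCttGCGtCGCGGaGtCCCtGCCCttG
WDR48: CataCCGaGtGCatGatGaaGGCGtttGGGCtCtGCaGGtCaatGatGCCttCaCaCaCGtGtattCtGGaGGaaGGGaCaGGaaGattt
Of the 90 bases, 62 in SLC1A5 and 63 in RSPH3 are G or C, against 45 in WDR48. Over their whole coding sequences the GC contents were 64.0%, 58.7% and 43.3%.

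Over all 6702 compared genes, 5450 could be matched by symbol to a RefSeq transcript (81.3%). The share of gained genes climbed with exon GC content from 5.77% under 40% GC to 27.2% over 60% GC, and the share of lost genes went from 13.8% to 0.528%. The median difference went from -0.22 to 0.65 over the same bins. Median exon GC was 46.1% over the compared genes with a value, 51.1% over the gained and 57.5% over the 1-cell-only genes. Only 77.9% of the lost genes could be matched, so a median for them is void. The lost shares by bin rest on the same matched genes. Median gene lengths were 3120 bases for the gained and 3222 bases for the lost genes.

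A slope of the same sign appeared in the Duroc clone step, from the in vitro matured oocyte to NT-D 1C, where the median difference went from -0.03 to 0.60 over the bins. The 2 egg libraries differed along it as well: the in vivo oocyte minus the in vitro matured oocyte went from 0.10 to -0.86. The in vivo 1-cell library minus the in vitro matured oocyte had medians between -0.24 and -0.07 in all 6 bins. With each bin centred on its median, an adjustment chosen after seeing the data, 633 genes were gained and 588 lost, and all 12 fibroblast markers stayed gained. Named genes that were then within the fold included ZP3, PADI6, PLK1, ESPL1, PPP2R1A, EIF4ENIF1, CNOT11, TRIM28, MCM4, MCM5, NFYA, RPLP2, PSMD3, ACTG1 and ACTB. The part of base composition in the calls was not tested.

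**Figure D5:**
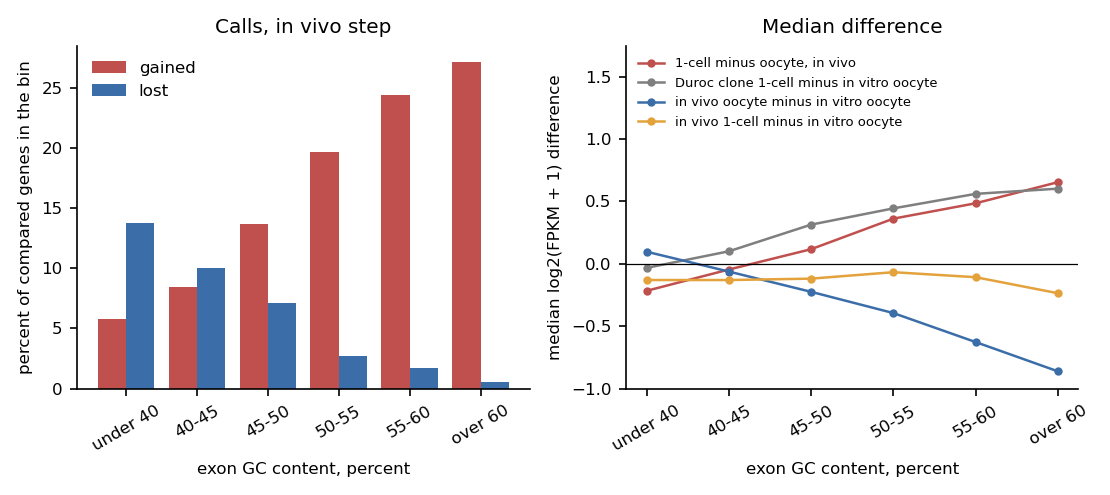
Left, percent of compared genes gained and lost in the in vivo step, by exon GC content of the gene. Right, median log2(FPKM + 1) difference in the same bins for 4 pairs of libraries: both oocyte to 1-cell steps climb with GC, the in vivo minus in vitro oocyte falls, and the in vivo 1-cell minus in vitro oocyte stays between -0.24 and -0.07.

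The Duroc clone step rests on 2 other libraries and was set beside the in vivo step. There 502 of 7062 compared genes were gained (7.11%) and 110 lost (1.56%). Of the 920 genes gained in vivo, 128 were also gained in the clones (13.9%, or 25.5% of the 502) and 26 were lost. Of the 512 lost in vivo, 4 were also lost in the clones (0.781%, or 3.64% of the 110) and 6 were gained. The in vivo gained set had a median clone difference of 0.46 and the lost set 0.05, beside 0.25 over all genes compared in the clones. Medians of the gained set were 3.40 FPKM in the in vivo oocyte, 10.9 in the in vivo 1-cell, 3.52 in the 2-cell and 9.41 in the in vitro matured oocyte library, and those of the lost set 27.6, 9.65, 15.3 and 17.6 FPKM. The first 2 values of each set are what chose it. With the in vitro matured oocyte put in place of the in vivo one as the start, a setting chosen after seeing the data, 130 genes were gained and 334 lost on the way to IV-D 1C, and 12 fibroblast markers were gained.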

How the data were processed

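The authors made SMART-Seq v4 cDNA from poly(A) RNA, sequenced paired 150 bp reads, aligned them with HISAT2 2.0.4 to Sscrofa11.1 and counted genes with HTSeq 0.9.1. The deposited values are FPKM per gene, 1 library per condition, in a table named as one of differential genes. The table was used as deposited. Whole fragments were recovered from each gene's FPKM steps (tolerance 0.02 fragments), which gave library depths and exact 95% binomial intervals of ratios, and the floor for genes at 0 was 3 fragments. Differences are log2(FPKM + 1), which understates the change of low genes, and a gene was called at a difference over 1 with FPKM of at least 1 in a library. No p-value between stages was computed. The table used holds 1 library per condition, and further replicates of the study were not analysed here. Named genes were the 12 largest rises and 12 largest falls with a symbol and at least 10 FPKM, the 12 largest 1-cell-only rises, up to 6 called members of each of 20 gene lists, and every fibroblast and meiotic list member, a few of which are not reported here. Members and lists were chosen with earlier results of these data known. Alternatives covered the pseudocount (0.1), the level filter, the fold, 2 scalings and an exact binomial test on fragments with trimmed-mean depth. Symbols came from the annotation table (7371 of 8603 genes). GC content and coding stretches were read from the RefSeq genome of the same build. Fragment recovery and calls were tested on simulated data. Python 3 with numpy, pandas, scipy and matplotlib was used.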

Additional observations from a re-analysis of the deposited data

Results flagged for a closer look

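RAB6A was flagged because its change had opposite directions in the in vivo and clone steps. The difference in log2(FPKM + 1) was 2.72 from the in vivo oocyte to IV-D 1C, while it was -1.48 from the in vitro matured oocyte to NT-D 1C and -1.59 from the same oocyte library to NT-LW 1C. Its levels were 2.26 and 20.5 FPKM in vivo and 15.9, 5.04 and 4.61 FPKM in the in vitro oocyte and the 2 clone libraries. There was 1 library per condition, so this difference between steps was not tested, and both clone steps start from one oocyte library.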

How the results depend on the processing

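The counts of 920 gained and 512 lost genes moved by over 1.5 times under several settings. A log2 difference over 2 left 82 gained and 33 lost, and the in vitro matured oocyte as the start (added after seeing the data) gave 130 and 334. Lost genes numbered 775 after rescaling to one sum and 1096 by the exact binomial test on fragments, which called 1245 gained, 801 of them also past the fold. The 118 1-cell-only genes became 48 with FPKM under 0.5 in both flanking libraries, 8 with at most 3 fragments in both, 287 with a pseudocount of 0.1, 12 with at least 5 FPKM in the 1-cell library, 78 after median-ratio scaling, and 39 when the in vitro matured oocyte was also under 1 FPKM (added after seeing the data). Gained fibroblast markers ranged from 8 with at least 5 FPKM to 14 with a pseudocount of 0.1, within 1.5 times the 12 reported. Of 315 further values for lists and named genes, 96 moved beyond counting error or their tolerance and none that was past the fold changed sign. No paired analysis was possible because each condition had 1 library. Leaving out a replicate was not possible for the same reason. Of the compared genes 85.3% had at least 100 fragments in the oocyte and 86.4% in the 1-cell library, so depth limits mainly the genes at 0 to a few fragments.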

Other observations

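The most abundant gene in the table has no symbol. ENSSSCG00000000296 took 4.40% of the fragments in the in vivo oocyte, 4.62% in the 1-cell and 6.81% in the 2-cell library. The gained genes together held 14.3% of the 1-cell fragments, and the lost genes 11.3% of the oocyte fragments.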
